A study of Mus musculus with 24 samples.

Results

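The subunits of oxidative phosphorylation were examined in mouse liver under 3 diets. Members were all probe sets of the array whose platform annotation lists exactly 1 gene symbol beginning with Nduf a, b, c, s or v, Uqcr, Cox4 to Cox8 or Atp5, or naming one of Sdha to Sdhd, with the Ndufaf assembly factors left out. The rule found 82 of 18193 genes, with 169 of the 45037 probe sets fitted. A further 10 probe sets list several symbols, at least 1 of them matching, and were left out.

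All mice were male C57BL6J, were accustomed to a low-fat diet before the experiment, received their diet for 4 weeks and had fasted for 16 h when liver was taken. The HF+P group received a diet with 45% fat to which 5% powdered propagules, the small aerial tubers of Japanese yam, had been added. The HF group received the 45% high-fat diet alone, and the LF group remained on low-fat diet. Each group held 6 mice, 18 in all. Liver RNA was extracted with Trizol, amplified, labelled with biotin and hybridised to Affymetrix 3' expression arrays. The study compared HF with LF for the effect of high-fat loading and HF+P with HF for the effect of propagule intake.

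Oxidative phosphorylation is carried out in the inner mitochondrial membrane by the 4 complexes of the respiratory chain and by ATP synthase, called complex V. Complex I takes electrons from NADH and complex II from succinate, and complex III passes them through cytochrome c to complex IV, which reduces oxygen. Complexes I, III and IV pump protons, and complex V uses the resulting gradient to make ATP. Most subunits are encoded in the nucleus and a few in mitochondrial DNA. The liver relies on this system for fatty acid oxidation and for gluconeogenesis during fasting. Several subunits of complex IV exist as a form found in most tissues, liver included, and a form typical of heart and skeletal muscle.

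There were 24 columns of deposited values for the 18 mice, because the authors analysed the HF samples a second time, next to HF+P. This gave 2 value sets of 12 columns, which were kept apart here. Both comparisons use the same HF mice, so they are not independent of each other. The values lay between 5.36 and 15 and were handled as log2 values, but they hardly differ between arrays. The pooled SD within groups, in millionths of a deposited unit, had a median of 1.6 over the members and 4.06 over all probe sets for HF against LF, and of 2.33 and 4.2 for HF+P against HF. No fold change is therefore given. Values per mouse are deviations from the mean of the 12 arrays of a value set, in millionths of a deposited unit. The size of a difference is the standardized difference, that is the difference of group means divided by the pooled SD, with Hedges' correction and a 95% interval. Precision rests on the 6 arrays per group. Of 10 hepatocyte markers 9 were measured, with means from 12.12 (Tat) to 14.89 (Alb) in the value set of HF and LF, near the upper end of the table's range.

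Promoters are shown first, because many nuclear genes of respiratory subunits are known to share regulatory elements. The RefSeq table of GRCm38.p6 held promoters of 67 of the 82 genes, 72 windows of 300 bases around the transcription start. The sequences below are the 250 bases before the start, 5′ to 3′ on the strand of the gene, with motif matches on either strand in capitals. Cox6a1, the form of subunit 6a found in most tissues, carries the nuclear respiratory factor 1 motif GCGCATGCG on both strands at overlapping positions, and the ETS motif CCGGAAG read on the other strand. Sdhd, a membrane anchor of complex II, and Ndufs3, a core subunit of complex I, each carry the ETS motif. Cox7a1, the heart and muscle form of subunit 7a, carries none of the motifs searched in this window.
Cox6a1, chr5:115348959-115349208, minus strand: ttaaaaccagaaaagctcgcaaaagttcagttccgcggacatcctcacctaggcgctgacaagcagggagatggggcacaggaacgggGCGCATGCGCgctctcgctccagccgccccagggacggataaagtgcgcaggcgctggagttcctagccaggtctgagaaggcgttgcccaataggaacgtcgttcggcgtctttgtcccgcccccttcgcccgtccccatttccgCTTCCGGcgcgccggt
Sdhd, chr9:50603850-50604099, minus strand: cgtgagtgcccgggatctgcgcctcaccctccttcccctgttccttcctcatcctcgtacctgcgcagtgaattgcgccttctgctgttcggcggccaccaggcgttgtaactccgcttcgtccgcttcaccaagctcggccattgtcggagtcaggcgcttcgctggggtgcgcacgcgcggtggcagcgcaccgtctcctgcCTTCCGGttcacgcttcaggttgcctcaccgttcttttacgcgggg
Ndufs3, chr2:90904722-90904971, minus strand: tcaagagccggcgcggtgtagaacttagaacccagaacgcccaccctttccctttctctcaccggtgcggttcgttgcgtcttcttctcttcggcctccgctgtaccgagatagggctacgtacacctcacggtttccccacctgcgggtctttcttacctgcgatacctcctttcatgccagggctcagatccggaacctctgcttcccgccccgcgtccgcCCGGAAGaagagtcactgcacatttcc
Cox7a1, chr7:30183921-30184170, plus strand: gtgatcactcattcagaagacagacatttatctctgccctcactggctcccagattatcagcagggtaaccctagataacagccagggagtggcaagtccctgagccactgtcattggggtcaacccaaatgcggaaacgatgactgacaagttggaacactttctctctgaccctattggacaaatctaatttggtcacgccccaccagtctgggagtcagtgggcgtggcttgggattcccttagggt

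Over the 300-base windows, CCGGAAG, bound by ETS factors such as GABP, stood in 23.6% of the 72 member promoters and in 8.86% of the 32851 promoters of the table. GCGCATGCG stood in 9.72% of member promoters and 1.75% of all, AAGATGGCG, the motif of YY1, in 8.33% and 1.4%, and TCAAGGTCA, the element of the estrogen-related receptors, in 2.78% and 0.423%. At least 1 of the motifs stood in 26 of the 72 member windows. Member promoters had a median G+C content of 58.5%, against 52.7% in all promoters, and these shares were not adjusted for it. A match describes the sequence and not binding.

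In HF against LF, 0 of the 169 member probe sets passed the test (limma, Benjamini-Hochberg over all probe sets, adjusted p below 0.05), where 0.671% of all probe sets did. The smallest adjusted p of a member was 0.107 by limma and 0.138 by the exact two-sided permutation test. That permutation test called 0 members and 0 of all 45037 probe sets, so it cannot set the members apart. As deposited, 59 members had a higher mean and 110 a lower mean in HF than in LF livers. Of all probe sets 50.8% were higher and 49.2% lower. After centring each array on its median, all 169 members were lower. After quantile normalization 24 were higher, 57 lower and 88 had a standardized difference of 0. The median standardized difference of the members was -0.433, against 0.0149 over all probe sets. An unadjusted limma p below 0.05 was found for 32 members, 18.9% of them, against 12.9% of all probe sets, of which 10 were higher (5.69% of all probe sets) and 22 lower in HF (7.25%). By gene, on the probe set with the highest mean, 29 of 82 genes were higher and 53 lower in HF as deposited, and all 82 lower after median centring.

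The array medians were higher in HF by 6.45e-05 deposited units, which exceeds the difference of 168 of the 169 members; the exception is Cox7a1. The median deviation of all probe sets, another measure of the array level, shifted by only -2.49e-08. Centring on it left 63 members higher and 106 lower, with 0 called, against 0.693% of all probe sets. After median centring limma called 169 members, but also 94.1% of all probe sets, and 42047 of those 42369 calls were lower in HF. The median standardized difference was then -2.79 over the members and -2.72 over all probe sets, so lower values in this setting were shared by most probe sets. After quantile normalization limma called 9 members, 1 higher and 8 lower, against 15% of all probe sets. The median over all probe sets was then -0.731.

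**Figure D1:**
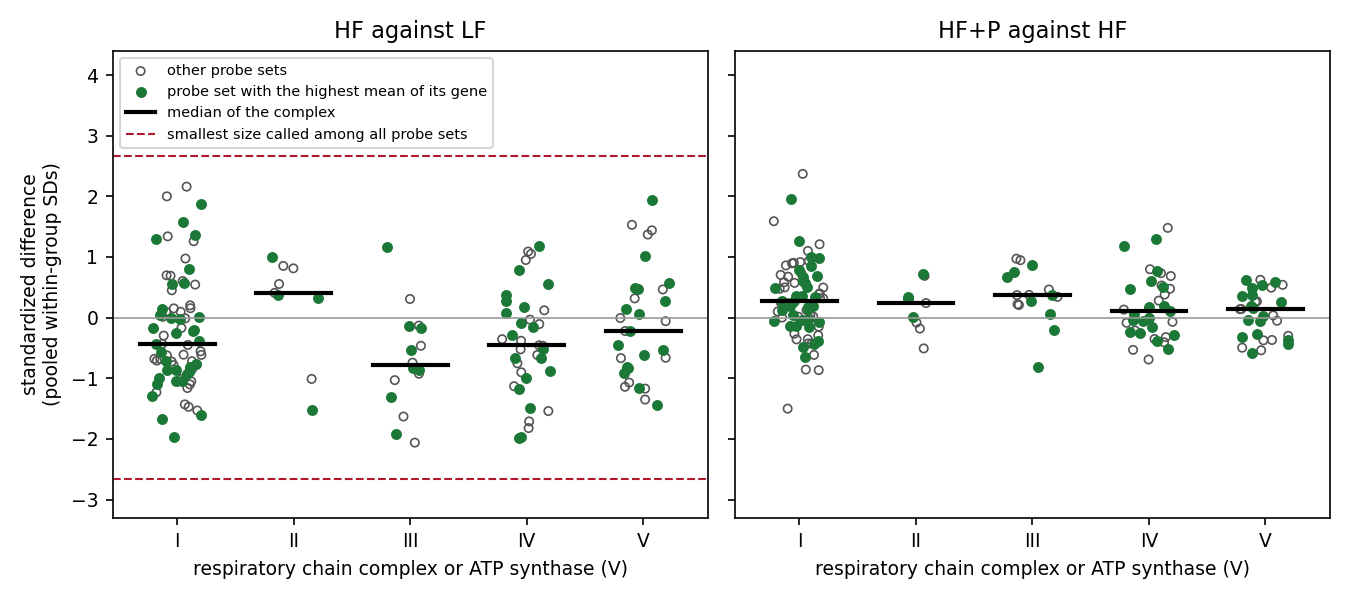
Standardized difference (vertical axis, pooled SDs) of each of the 169 member probe sets by complex, for HF against LF (left) and HF+P against HF (right), in values as deposited. Filled points are the probe set with the highest mean of its gene, bars are medians of a complex, and dashed lines the smallest size called among all probe sets, 2.66 for HF against LF. Complex III lies lowest in HF against LF, with a median of -0.788, and no member reaches a dashed line. After median centring all 169 members are negative on the left, and 163 positive on the right. The medians over all probe sets are then -2.72 and 0.52.

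**Figure D2:**
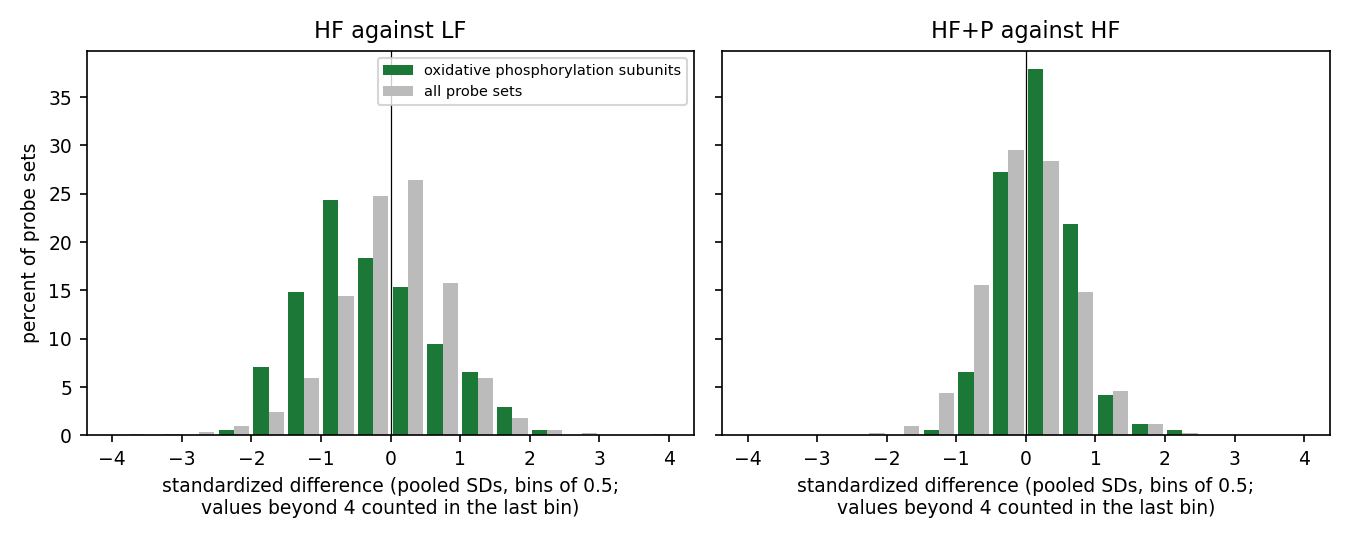
Share of probe sets (vertical axis, percent) by standardized difference as deposited (horizontal axis, pooled SDs, bins of 0.5), for the 169 members and for all 45037 probe sets. In HF against LF the fullest member bin runs from -1 to -0.5 and holds 24.3% of members. In HF+P against HF it runs from 0 to 0.5 and holds 37.9%. Median centring makes all members negative on the left and 163 positive on the right, with medians over all probe sets of -2.72 and 0.52.

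Complex I was represented by 76 probe sets, of which 26 had a higher and 50 a lower mean in HF as deposited (median -0.442), all lower after median centring. Its Q module, the part that hands electrons to ubiquinone, held both the most negative and the most positive value of the complex. Ndufa5, an accessory subunit of this module, ranged from -10.1 to 0.833 millionths in HF livers, with a median of -2.61, and from 0.223 to 9.33 in LF livers, with a median of 2.8. Only the highest HF mouse lay within the LF range. Its standardized difference was -1.96 (95% interval -3.28 to -0.586, limma adjusted p = 0.125). Ndufs7, a core iron-sulfur subunit, had -1.67 and -1.53 on its 2 probe sets (limma adjusted p = 0.187 and 0.232).

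Ndufs3 lay on the other side in the deposited values. It ranged from -1.11 to 3.5 millionths in HF livers, with a median of 1.34, and from -2.6 to -0.407 in LF livers, with a median of -1.12. The lowest HF mouse fell inside the LF range and the other 5 lay above it. The standardized difference was 1.88 (0.528 to 3.17, limma adjusted p = 0.168), and -2.69 after median centring. Ndufs8, another core iron-sulfur subunit, had a higher HF mean on 5 of 6 probe sets as deposited, from 1.26 to 2.16. The remaining one had -0.0117, and all 6 were lower after median centring. Its probe set 1434213_x_at was the only one of the 169 members whose groups did not overlap, against 1.57% of all probe sets, 0.644% with the higher values in HF. There the HF mice ran from -0.095 to 1.76 millionths around a median of 0.945, and the LF mice from -2.18 to -0.125 around -0.78. The standardized difference was 2.16 (0.729 to 3.53, limma adjusted p = 0.168), -2.69 after median centring and -1.21 after quantile normalization. The exact permutation p was 0.00216, the smallest the design allows, which every probe set without overlap receives.

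In the N module, which oxidises NADH, 7 of 22 probe sets had a higher and 15 a lower mean in HF as deposited, all lower after median centring. All 4 probe sets of the accessory subunit Ndufa12 were lower in HF, from -1.6 to -1.05 as deposited and also after median centring; after quantile normalization one of them was at 1.51. The NADH-oxidising flavoprotein Ndufv1 had -0.433 (-1.48 to 0.639), and Ndufs1, the largest iron-sulfur subunit, -0.261 (-1.3 to 0.796), both with intervals that include 0. The remaining subunits, mostly of the membrane arm, had 13 probe sets higher and 30 lower, with a median of -0.555, and all 43 were lower after median centring.

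Complex II was the only complex with more probe sets higher than lower in HF, 7 against 2 as deposited (median 0.409), although all 9 were lower after median centring. All 4 probe sets of the flavoprotein Sdha had positive values, from 0.377 to 0.853. Sdhb, the iron-sulfur subunit, ranged from -0.673 to 1.56 millionths in HF livers (median 0.572) and from -1.98 to 0.707 in LF livers (median -0.553), with a standardized difference of 0.998 (-0.153 to 2.11, limma adjusted p = 0.528) that turned to -2.79 after median centring. The groups overlapped widely. Both negative probe sets belong to Sdhd, whose promoter is shown above. In HF livers Sdhd ranged from -6.37 to 4.44 millionths, with a median of -5.17, and in LF livers from -2.53 to 9.29, with a median of 3.19. Mouse 5 of HF alone lay within the LF range and the other 5 HF mice lay below it (-1.53, -2.74 to -0.264, limma adjusted p = 0.23).

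Complex III had the most one-sided values. Of 16 probe sets 14 had a lower mean in HF as deposited and all 16 after median centring, and 5 had an unadjusted limma p below 0.05, 1 higher and 4 lower, where 12.9% of all probe sets had one. All 3 probe sets of Uqcr10, a small subunit of the complex, had lower HF means, at -2.06, -1.92 and -1.63 (limma adjusted p from 0.107 to 0.195). On the probe set with the highest mean, Uqcr10 ranged from -7.43 to 0.428 millionths in HF livers, with a median of -3.47, and from -1.49 to 7.44 in LF livers, with a median of 3.57. The groups overlapped only through the lowest LF mouse, number 3, and the 2 highest HF mice. The hinge protein Uqcrh had -1.31 (-2.47 to -0.0935) and the Rieske iron-sulfur protein Uqcrfs1 -0.834 (-1.92 to 0.289). Uqcrc1, a core protein, was the exception among genes with 1.17 (-0.0159 to 2.3), and it too turned negative, to -2.64, after median centring.

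**Figure D3:**
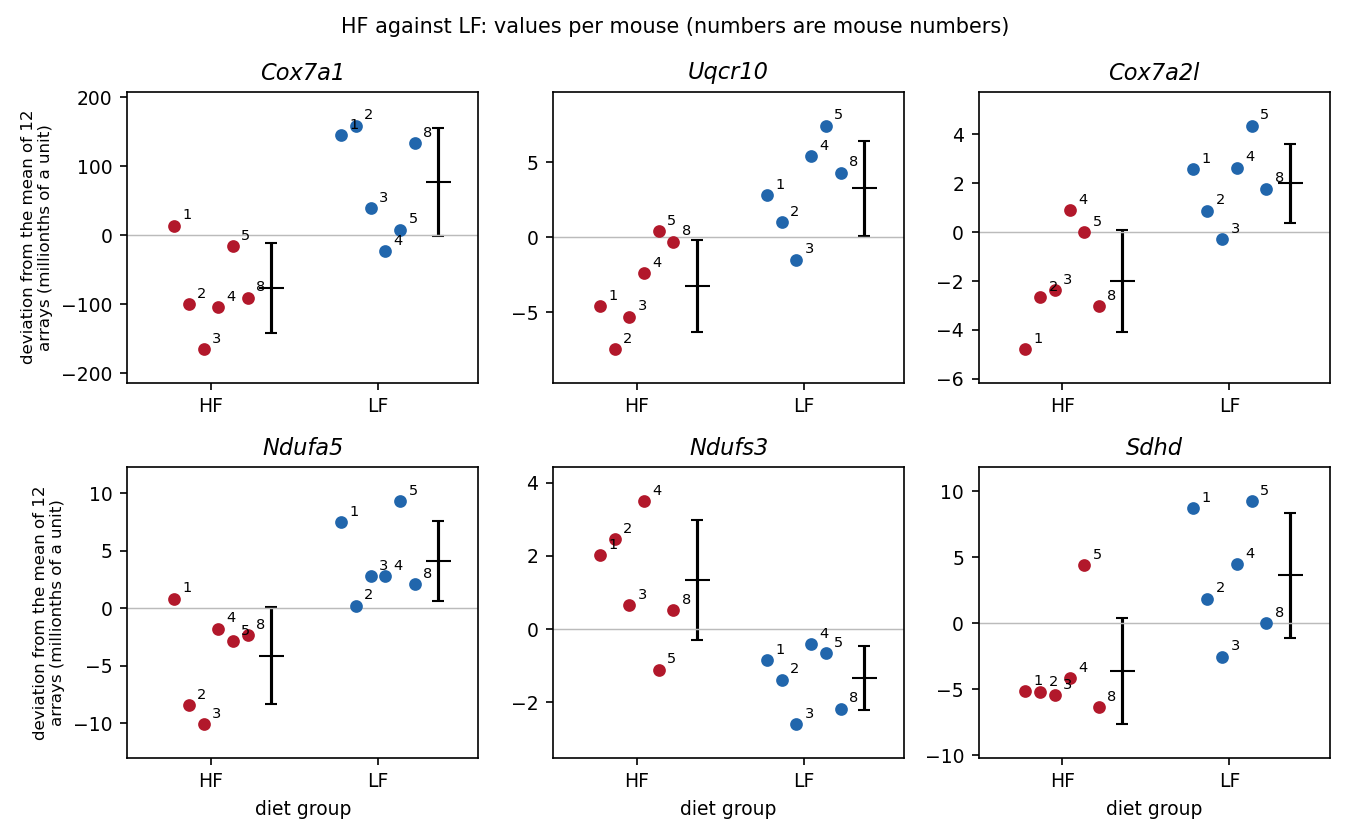
Deviation of each mouse from the mean of the 12 arrays (vertical axis, millionths of a deposited unit) in HF and LF livers for 6 members, on the probe set with the highest mean. Points are mice labelled with their numbers, and bars the mean and SD of 6 mice. HF mice lie mostly below LF mice for Cox7a1, Uqcr10, Cox7a2l, Ndufa5 and Sdhd, and above them for Ndufs3 (1.88), which turns to -2.69 after median centring.

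Complex IV counted 11 probe sets with a higher and 26 with a lower HF mean as deposited, and all 37 lower after median centring. The widest difference of any member was that of Cox7a1, the heart and muscle form, read here in whole liver. It ranged from -165 to 13.9 millionths in HF livers, with a median of -95.2, and from -23.6 to 159 in LF livers, with a median of 86.2. The LF range began above 4 of the 6 HF mice. The difference was -154 millionths, or -1.97 pooled SDs (-3.28 to -0.591, limma adjusted p = 0.118). It was -2.75 after median centring and -1.87 after quantile normalization, where the medians over all probe sets were -2.72 and -0.731. Its counterpart in most tissues, Cox7a2, had -0.293 (-1.34 to 0.766).

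The related Cox7a2l had lower HF means on all 3 probe sets (-1.98, -1.71 and -1.54, limma adjusted p from 0.134 to 0.23). Its first probe set turned to 1.47 after quantile normalization. In HF livers it ranged from -4.78 to 0.892 millionths (median -2.52) and in LF livers from -0.278 to 4.36 (median 2.18). Cox4i1, the main form of subunit 4, had -1.49 (-2.69 to -0.235), and Cox5a had lower HF means on all 3 probe sets, from -1.82 to -1.13. For the other form of subunit 4, Cox4i2, the value was 0.782 (-0.334 to 1.86), and for the muscle form Cox6a2 0.554 (-0.531 to 1.61), both negative after median centring (-2.54 and -2.49). Cox6a1 stood near 0 at -0.0956 (-1.14 to 0.952). Other forms with intervals that include 0 were Cox6b1 (-0.517), Cox6b2 (-0.879), Cox8a (-0.668), Cox8b (-0.153), Cox8c (0.38) and Ndufa4l2 (1.18). After median centring all of these were negative.

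ATP synthase was the most evenly divided, with 13 probe sets higher and 18 lower in HF as deposited and all 31 lower after median centring. Atp5a1 and the catalytic subunit Atp5b had 0.49 (-0.588 to 1.54) and -0.213 (-1.26 to 0.841). Atp5l, subunit g of the membrane part, ranged from -5.57 to 1.84 millionths in HF livers (median -1.5) and from 0.691 to 3.97 in LF livers (median 1.13), a standardized difference of -1.44 (-2.63 to -0.201, limma adjusted p = 0.273). Only mouse 1 of the HF group lay within the LF range. Atp5j, subunit F6, showed how small some differences are. Its HF mean lay 0.0567 millionths above the LF mean, which is 1.94 pooled SDs (0.572 to 3.25), yet limma gave an adjusted p of 0.969 and the exact permutation test p = 0.0108, and after median centring the value was -2.76. The genes of the c ring, Atp5g1, Atp5g2 and Atp5g3, had -0.612, 0.137 and -0.446 on their leading probe sets, all with intervals that include 0 and all negative after median centring.

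For 49 genes with several probe sets, 5 had all their probe sets higher in HF, 27 all lower and 17 some of each, in values as deposited, and all 49 had only lower probe sets after median centring. Of the 169 probe sets, 47 end in _s_at or _x_at and may take up signal of related transcripts. Without them 35 of 122 were higher and 87 lower, and all 122 were lower after median centring.

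Other genes of the pathway were read from fixed lists of names. Among 44 measured assembly factors 0 rose and 1 fell in HF, against 0.269% and 0.402% of all probe sets. This was Sco2, a copper chaperone of complex IV, with -2.71 (-4.25 to -1.11, limma adjusted p = 0.047). The Sco2 probe set ends in _s_at and may take up signal of related transcripts. Its value was -3.01 after median centring and -1.85 after quantile normalization, where the medians over all probe sets were -2.72 and -0.731. The call was lost when any single mouse other than HF mouse 1 was left out (limma adjusted p from 0.0522 to 0.108). It was also lost with the mouse number as a block (0.051) and without the number 3 mice (0.149). The exact permutation test gave an adjusted p of 0.138, but it called 0 of all 45037 probe sets, so it could not keep this call. Of the 44 assembly factors 27 had a higher and 17 a lower HF mean as deposited, and all 44 a lower one after median centring. The largest standardized difference of that list lay on the higher side, 3.1 for Surf1 (1.37 to 4.77, limma adjusted p = 0.07). None of 22 electron carriers and feeders, 19 regulators and 12 TCA cycle enzymes passed in either direction, with medians of 0.145, 0.0544 and -0.836. The TCA cycle, the source of NADH and succinate, had 10 of 12 genes lower in HF as deposited, and all 12 after median centring. Mdh2, which makes NADH from malate, had the smallest adjusted p of the TCA cycle list with -2.82 (limma adjusted p = 0.059), and the carrier Etfdh, which passes electrons from fatty acid oxidation to ubiquinone, had the same adjusted p with -2.53. Of the subunits encoded in mitochondrial DNA only ND5 was measured (-0.671, -1.74 to 0.428). At an unadjusted limma p below 0.05, 12 of 44 assembly factors were found, 7 higher and 5 lower in HF. The 5 of 22 carriers, 2 of 19 regulators and 3 of 12 TCA cycle enzymes found were all lower. Of all probe sets 12.9% were found, 5.69% higher and 7.25% lower.

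The diets' mice ranged widely in the level of the members as a whole. In both value sets the mouse numbered 3 had the lowest member values of its group. The median over the 169 members, in pooled SDs from the mean of the 12 arrays, was -1.14 in HF mouse 3, with the other HF mice from -0.125 to 0.457, and -0.709 in LF mouse 3, with the other LF mice from 0.0789 to 0.526. In the second value set it was -1.1 in HF+P mouse 3, with the other HF+P mice from 0.223 to 0.749, and -0.784 in HF mouse 3. HF mouse 3 was the lowest of its group for 81 of 169 members and LF mouse 3 for 92, or 47.9% and 54.4%, while they were lowest for 18.8% and 20.3% of all probe sets. HF+P mouse 3 was lowest for 95 members, 56.2%, against 16.6% of all probe sets. The labels state no link between mice that carry the same number.

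Kupffer cell and macrophage markers were high in the same animals. The median over 12 markers, all of them measured, was 2.33 in HF mouse 3, with the other HF mice from -0.614 to 0.64, and 1.33 in LF mouse 3, with the other LF mice from -1.22 to -0.34. In the second value set it was 0.667 in HF+P mouse 3, with the other HF+P mice from -1.54 to 0.204, and 2.47 in HF mouse 3. The number 3 mouse was highest of its group for 10 of 12 markers in HF, 11 in LF and 10 in HF+P. Between diets, 11 of 12 markers had the higher mean in HF against LF and 12 of 12 the lower mean in HF+P against HF, as deposited and after median centring alike, with 0 called by limma in either and 1 marker at an unadjusted p below 0.05 in HF against LF; after quantile normalization 9 were higher in the first comparison and 10 lower in the second. Lymphocyte and NK cell markers, 10 of 12 measured, had a median of 1.97 in HF mouse 3, with the other HF mice from -0.682 to 0.592, but -0.452 in LF mouse 3, within the range of the other LF mice, -0.685 to 0.0853. In the second value set they stood at -0.0309 in HF+P mouse 3, within the range of the other HF+P mice, and at 1.6 in HF mouse 3, the highest HF mouse. Between diets, 10 of 10 were higher in HF against LF as deposited (median 0.815) but 1 after median centring, and 8 of 10 were lower in HF+P against HF as deposited (median -0.46) but 5 after median centring, with 0 called by limma in either and 2 and 1 markers at an unadjusted p below 0.05. The part of these cells in the subunit values was not tested, and in whole liver fewer cells of a type and less RNA per cell cannot be told apart. Without the number 3 mice, 62 members had a higher and 107 a lower HF mean as deposited, with a median of -0.497. In that setting 0 members passed, against 103 of all 45037 probe sets.

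**Figure D4:**
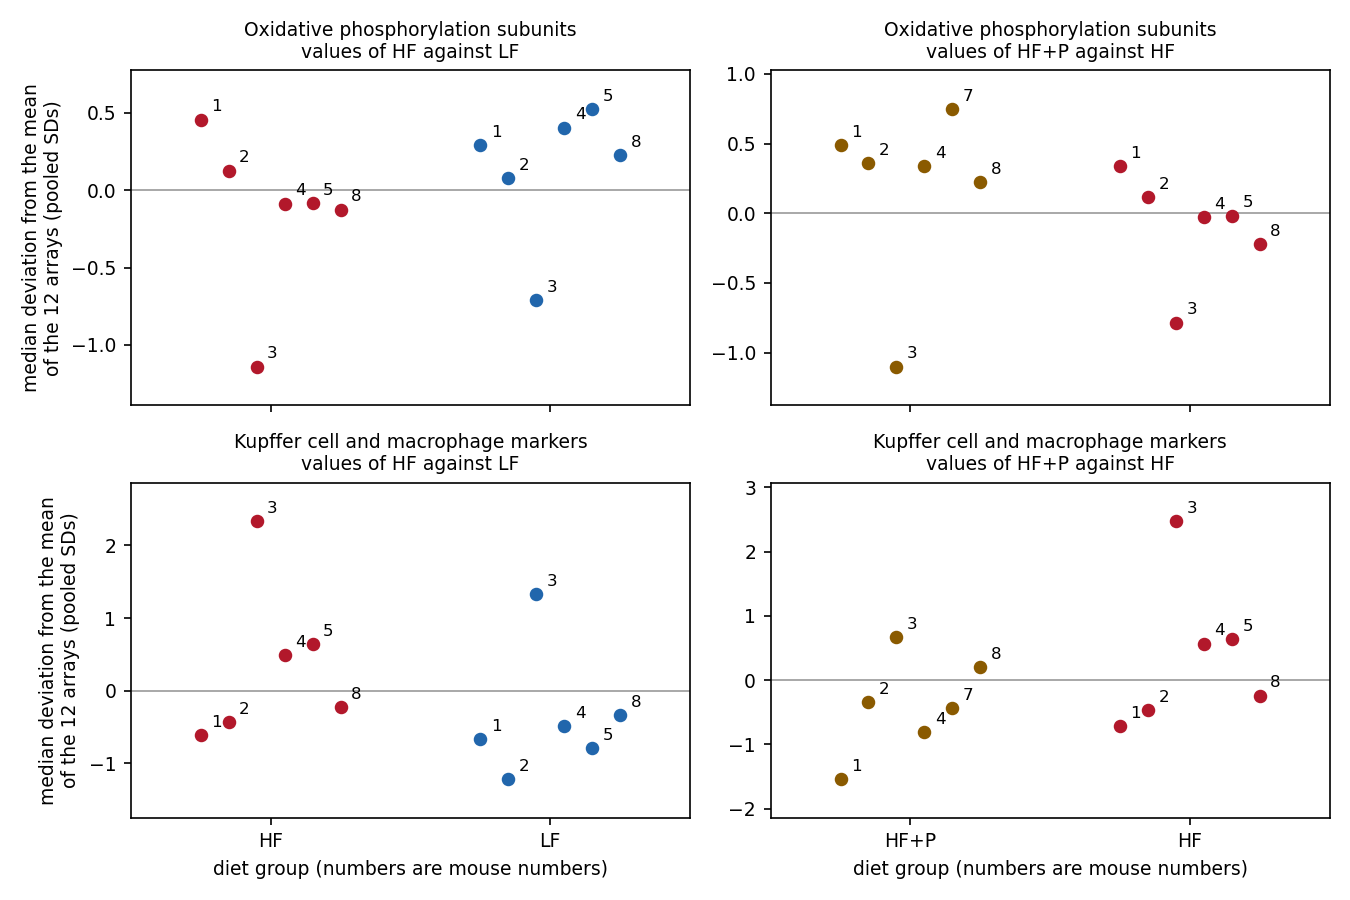
Median deviation from the mean of the 12 arrays (vertical axis, pooled SDs) per mouse, for the 169 members (top) and 12 Kupffer cell and macrophage markers (bottom), in HF and LF livers (left) and HF+P and HF livers (right), as deposited. Points are mice labelled with their numbers. Mouse 3 is lowest of its group for the subunits and highest for the macrophage markers in all 4 groups plotted.

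In HF+P against HF, again 0 of 169 members passed the limma test, where 0.00222% of all probe sets, a single one, did. The smallest adjusted p of a member was 0.459 by limma and 0.593 by the exact permutation test. That permutation test called 0 members and 0 of all 45037 probe sets, so it cannot set the members apart. As deposited, 111 members had a higher mean and 58 a lower mean in HF+P than in HF livers. Of all probe sets 49.3% were higher and 50.6% lower. After median centring 163 members were higher, with 0 called against 0.00444% of all probe sets. After quantile normalization 30 were higher, 28 lower and 111 had a standardized difference of 0. The median standardized difference as deposited was 0.208, against -0.00952 over all probe sets. After median centring it was 0.641, against 0.52 over all probe sets, so higher values in that setting were shared by most probe sets. An unadjusted limma p below 0.05 was found for 6 members, 3.55%, against 6.94% of all probe sets. Of the 6, 5 were higher (3.74% of all probe sets) and 1 lower (3.2%). Array medians shifted by -4.09e-06, more than the difference of 144 of the 169 members.

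The largest count of higher means was in complex I, with 53 of 76 probe sets as deposited (median 0.267) and 74 after median centring. Within it the N module had 19 of 22 higher as deposited (median 0.447) and all 22 after median centring. The probe set 1418068_at of Ndufa10, an accessory subunit of the membrane arm, was the only member without overlap of the groups, against 0.355% of all probe sets, 0.162% with the higher values in HF+P, and it is named because of that. Its HF+P mice ran from -0.639 to 5.58 millionths around a median of 1.95, and its HF mice from -3.39 to -0.992 around -2.47. The standardized difference was 2.37 (0.88 to 3.81, limma adjusted p = 0.459). The exact permutation p was 0.00216, the smallest the design allows, which every probe set without overlap receives. The other probe set of Ndufa10 had -0.0601 (-1.1 to 0.986).

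Ndufa1, a small accessory subunit, ranged from -0.122 to 0.378 millionths in HF+P livers, with a median of 0.203, and from -0.422 to 0.0483 in HF livers, with a median of -0.212. HF+P mouse 8 alone fell inside the HF range. The standardized difference was 1.95 (0.582 to 3.27), but the step is a small fraction of a millionth and the limma adjusted p was 0.876. Ndufa9, which lies where the 2 arms of complex I meet, ranged from -2.69 to 4.6 in HF+P livers (median 2.37) and from -4.17 to 1.99 in HF livers (median -3.49), with 1.26 (0.0584 to 2.42, limma adjusted p = 0.699). Ndufv1 had 0.691 on its leading probe set and 1.21 on another, and Ndufa12 had positive values on all 4 probe sets, from 0.902 to 1.59. Ndufb2, of the membrane arm, had the most negative value of all members, -1.5 on one probe set (-2.7 to -0.243), which turned to 0.208 after median centring, and 0.138 on its leading one.

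Complex III had 14 of 16 probe sets higher in HF+P as deposited (median 0.373) and all 16 after median centring. Uqcrfs1 ranged from -1.63 to 1.42 millionths in HF+P livers (median 0.896) and from -2.79 to 1.3 in HF livers (median -0.459), with 0.87 (-0.259 to 1.96). Uqcr11, another small subunit, had -0.808 (-1.89 to 0.311), which turned to 0.389 after median centring. Uqcr10, lower on 3 of 3 probe sets in HF against LF, had -0.209 (-1.25 to 0.844) on its leading probe set here, and 0.546 after median centring.

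Complex II had 6 of 9 probe sets higher, with Sdha at 0.715 (-0.391 to 1.79) and Sdhd at 0.334 (-0.729 to 1.38), and all 9 were higher after median centring. Complex V had 18 higher and 13 lower as deposited, and 29 higher after median centring. Its b subunit Atp5pb and catalytic subunit Atp5b had 0.595 (-0.494 to 1.66) and 0.616 (-0.476 to 1.68). None of these intervals excluded 0.

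Complex IV was the most evenly divided here, with 20 probe sets higher and 17 lower as deposited, and 35 higher after median centring. Cox4i1 ranged from -0.11 to 0.4 millionths in HF+P livers (median 0.26) and from -0.79 to 0.1 in HF livers (median -0.065), with 1.3 (0.0852 to 2.46, limma adjusted p = 0.875). Cox7a1 again had the widest difference, 125 millionths. It ranged from -88 to 272 in HF+P livers, with a median of 67, and from -146 to 15.3 in HF livers, with a median of -66.7 (1.18, -0.00893 to 2.31, limma adjusted p = 0.71). HF+P mouse 8 had the highest value, and without it the standardized difference was 1.09.

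HF+P mouse 8 also had the highest values of the other muscle forms. Cox6a2 stood at 94 millionths in this mouse, with the other HF+P mice from -35.4 to 9.32 and the HF mice from -30.5 to 40.8. Cox8b stood at 72.2, with the other HF+P mice from -22.5 to 7.4 and the HF mice from -33.2 to 9.83. The standardized differences of the groups were 0.106 for Cox6a2 and 0.598 for Cox8b, both with intervals that include 0 and both also positive after median centring. Skeletal muscle markers were high in the same mouse: their median over 10 markers was 1.82, with the other HF+P mice from -0.44 to 0.0476 and the HF mice from -0.216 to 0.0232. The mouse was highest of its group for 6 of 10 markers, with skeletal actin Acta1 at 175000 millionths against -26400 to -13700 in the other HF+P mice, and it was lowest of its group for 1. The part of muscle RNA in the values of Cox6a2, Cox8b and Cox7a1 was not tested.

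**Figure D5:**
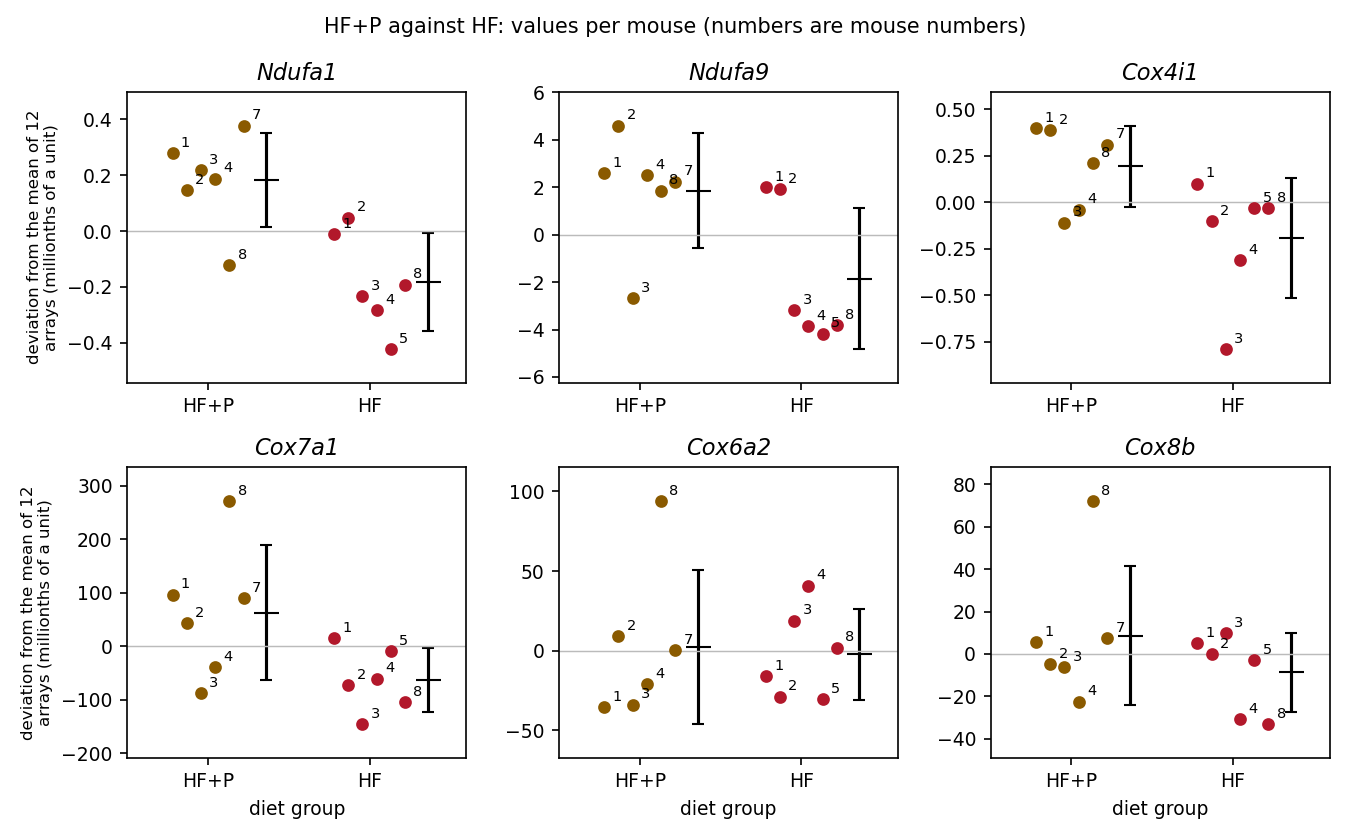
Deviation of each mouse from the mean of the 12 arrays (vertical axis, millionths of a deposited unit) in HF+P and HF livers for 6 members, on the probe set with the highest mean. Points are mice labelled with their numbers, and bars the mean and SD of 6 mice. HF+P mouse 8 is the highest mouse for Cox7a1 (272), Cox6a2 (94) and Cox8b (72.2), and all 6 standardized differences are positive, also after median centring.

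For the 49 genes with several probe sets, 22 had all probe sets higher in HF+P, 4 all lower and 23 some of each, in values as deposited, and 44 had only higher probe sets after median centring. Of the other pathway lists, 0 of 44 assembly factors, 22 carriers and feeders, 19 regulators and 12 TCA cycle enzymes passed, with 27, 13, 14 and 11 higher in HF+P as deposited and 39, 21, 18 and 12 after median centring, and at an unadjusted limma p below 0.05 there were 1, 1, 2 and 2 genes, where 6.94% of all probe sets were found. The TCA cycle had a median of 0.601, and Dld, a subunit shared by several dehydrogenases of 2-oxo acids, had 1.84 (0.502 to 3.13, limma adjusted p = 0.532). Sco2 had 0.729 (-0.378 to 1.8). Without the number 3 mice, 127 members had a higher and 42 a lower HF+P mean as deposited, with a median of 0.35. In that setting 0 members passed, and 0 of all 45037 probe sets did.

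The 6 HF mice stand in both value sets. The same mouse was highest in both sets for 136 of 169 members, 80.5%, and for 75.0% of all probe sets. The same mouse was lowest for 137 members. The spread between HF mice was 1.41 times as large in the second value set as in the first in the median over members, and 1.0 times over all probe sets.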

How the data were processed

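Per the labels, liver RNA of 18 mice was hybridised to Affymetrix 3' arrays. The authors deposited a table of 45101 rows in 24 columns; the submitters' processing notes name R 2.7.2. The deposited values were handled as log2 values summarised by the authors per probe set, and their log base, summarisation method and normalisation were not given in the sources used here. Per the labels, HF samples were analysed with LF and re-analysed with HF+P, and the 2 sets were never mixed.

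The 64 control probe sets were left out. Genes were named through the platform annotation, which lists 1 symbol for 34945 probe sets, several for 932 and does not list 9160; all 169 members matched RefSeq gene identifiers. Each comparison was fitted in limma 3.58.1 (R 4.3.3, lmFit and eBayes, two-sided, no covariate) over 45037 probe sets with Benjamini-Hochberg adjustment and a threshold of 0.05, and tested on simulated data. Prior degrees of freedom were 0.719 and 0.755. Limma moderates each SD towards a common value, so members with very small SDs receive large p-values. Exact permutation tests used all 924 assignments of 12 mice. Intervals of the standardized difference come from the noncentral t distribution.

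The members, gene lists and tests were chosen with earlier results of these data known. Named genes were the 2 with the largest absolute standardized difference per complex and comparison. Isoform pairs, catalytic or core subunits and genes with 4 or more probe sets were also on this list, 45 genes in all. Of the list, Ndufa4, Cox5b, Ndufs4 and Ndufc2 are not described above. Ndufa10, Ndufb2, Ndufs7, Sco2, Surf1, Mdh2, Etfdh and Dld were named after their values were seen. Alternatives were other scalings, filters, probe set choices, limma settings, a block for mouse number, and each mouse left out in turn. Centring on the median deviation, leaving out _s_at and _x_at probe sets and leaving out the mice numbered 3 were chosen after seeing the data.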

Additional observations from a re-analysis of the deposited data

Results flagged for a closer look

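Values below are deviations from the mean of the 12 arrays in millionths of a deposited unit, unless they are medians over members in pooled SDs. Dixon's criterion was applied to 184 sets of 6 values, from named genes and the median over members. These sets come from the same few mice, with the HF mice in both value sets. In 14 of them, 7.61%, a single mouse stood apart from the other 5. Chance gives about 1 in 20 for independent tests, but these tests are not independent, so the shares cannot be compared. The median over the 169 members stood apart in HF mouse 3 (-1.14), in LF mouse 3 (-0.709) and in HF+P mouse 3 (-1.1).

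HF+P mouse 3 was apart on the low side for 5 members. It stood at -9.17 for Atp5g1 (other HF+P mice 1.95 to 3.61), at -4.13 for Atp5g3 (-0.144 to 1.26), at -2.8 for Cox6b1 (0.03 to 1.41), at -4.07 for Ndufv1 (1.12 to 2.84) and at -1.63 for Uqcrfs1 (0.791 to 1.42). Uqcr11 was at -3.86 in HF mouse 3, with the other HF mice from -0.758 to 0.522.

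On the high side, HF+P mouse 8 stood at 94 for Cox6a2 (other HF+P mice -35.4 to 9.32) and at 72.2 for Cox8b (-22.5 to 7.4). HF mouse 5 stood at 4.44 for Sdhd (other HF mice -6.37 to -4.14) in the set analysed with LF and at 1.93 (-0.951 to 0.00917) in the set analysed with HF+P. LF mouse 5 stood at 3.97 for Atp5l, with the other LF mice from 0.691 to 1.72.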

How the results depend on the processing

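Array scaling moved the counts of higher and lower members. With HF against LF, limma called 0 members as deposited, 169 after median centring and 9 after quantile normalization. The share of members with a higher HF mean was 34.9% as deposited and 0.0% after median centring. After quantile normalization it was 14.2%, where 88 members had a standardized difference of 0. It was 20.7% among the 29 members kept when only probe sets above the median SD were fitted. The median standardized difference of those 29 was -0.879. The 9 members called after quantile normalization were Ndufa7 (higher) and Cox6b2, Cox7a1, Cox8c, Ndufs8, Uqcr10, Uqcrq and 2 probe sets of Ndufab1 (lower). With HF+P against HF, 0 members were called under every setting run, where at most 2 of all probe sets were. The share with a higher HF+P mean was 65.7% as deposited and 96.4% after median centring. After quantile normalization it was 17.8%, where 111 had a standardized difference of 0. The cause of the shift in array medians was not tested. In every other setting run, 0 members were called in either comparison, the looser threshold of 0.1 included.

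Leaving out 1 mouse at a time, 0 members were called, the share of higher members ran from 29.0% to 42.0% for HF against LF and from 57.4% to 80.5% for HF+P against HF, the median standardized difference from -0.494 to -0.283 and from 0.0953 to 0.453, and the calls over all probe sets from 131 to 325 and from 0 to 2. The median of HF against LF was -0.283 without HF mouse 3; that of HF+P against HF was 0.453 without HF+P mouse 3, 0.119 without HF mouse 3 and 0.0953 without HF+P mouse 7. Calls over all probe sets in HF against LF were 151, 174 and 173 without HF mice 2, 3 and 4, and 174, 145, 131 and 174 without LF mice 1, 3, 5 and 8.

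With the mouse number as a replicate block, 0 members were called, and 34.9% were higher in HF against LF. The smallest member adjusted p by limma was 0.0513, against 0.107 without the block. The median difference, here in SDs of the differences between same-numbered mice, was -0.269. That scale is not the pooled SD, so the value is not comparable with -0.433 without the block. In HF+P against HF only mice of the 5 shared numbers were used, and 60.9% of members were higher. There the smallest limma adjusted p was 0.409, against 0.459 with all mice and no block, and the median on the scale of differences was 0.161. Of all probe sets 246 and 1 were called, against 302 and 1 without the block. Mice of different groups share numbers, but the labels state no pairing. Same-numbered mice correlated between -0.13 and 0.0976 in HF and LF, and between 0.0338 and 0.209 in HF+P and HF. Set against all 6 mice of the other group, 4 of 6 numbers correlated best with their own in HF and LF. In HF+P and HF 3 of 5 did. Whether these counts exceed those of unlinked mice was not tested. Over all probe sets limma made 302 calls for HF against LF as deposited, 42369 after median centring, 6766 after quantile normalization, 861 at a threshold of 0.1, 568 among probe sets above the median level, 539 among those above the median SD, 103 without the number 3 mice and 0 by permutation.

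The files give no background signal or detection call, so it is not known which members lay near background.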
